A study of Mus musculus with 12 samples.

Results

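Mouse embryonic fibroblasts (MEFs) at day 10 of the chemical combination 6TCF were compared with MEFs at day 0 of the same arm. The arrays were chosen by their titles, 2 at 6TCF day 0 and 2 at 6TCF day 10, which makes 4 of the 12 arrays of the series. RNA was measured on Affymetrix Mouse Genome 430A 2.0 arrays, and the other arrays are 2 of 6TCF at day 5 and 2 each of another combination, SGCF, at days 0, 5 and 10. 6TCF and SGCF are code names, and no source used here says what they contain. All groups share the base culture: MEFs in DMEM with 10% fetal bovine serum (FBS), seeded at 20000 cells per dish of 35 mm, and then a medium of DMEM with 15% FBS, 2 mM GlutaMax-I, nonessential amino acids, β-mercaptoethanol and 40 ng/ml basic fibroblast growth factor (bFGF). The labels do not say which of these media the day 0 cells were in, and no strain, genotype or embryonic age of the mice is stated in them. No untreated culture of day 10 was analysed here, so the chemicals, the time in culture and the change of medium cannot be told apart. The title of the series concerns the conversion of fibroblasts toward several lineages, and the comparison gives the state of the 6TCF culture at its last time point.

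Deposited intensities had medians of 131 and 141 on the 6TCF day 0 arrays and 126 and 142 on the day 10 arrays, and having 2 arrays a group limits the precision. Across genes, which are not independent replicates, the arrays correlated at r = 0.996 within day 0, 0.995 within day 10 and 0.925 to 0.930 between the days. A control for RNA quality is the actin signal at the 3' end less that at the 5' end, which is larger in degraded RNA. It was 0.30 and 0.39 at day 0 and 1.04 and 1.03 at day 10 on the log2 scale, and that of Gapdh was 0.34 and 0.44 against 0.49 and 0.49. The actin control thus moved with the day, and its part in the results was not tested. Values below are normalised levels on the log2(intensity + 16) scale. Where a pair of values is given for a day, replicate 1 comes before replicate 2. A log2 change is day 10 minus day 0 with its standard error (SE) from limma, with 2 arrays in each group, and a gene is called at a Benjamini-Hochberg adjusted p under 0.05.

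Fibroblasts make and remodel the connective tissue matrix. Under mechanical load and TGF-beta they become myofibroblasts, which assemble actin stress fibres through serum response factor (SRF) and lay down crosslinked collagen, while Wnt, bone morphogenetic protein (BMP) and retinoic acid signals steer mesenchymal cells in the embryo. Fibroblasts are also a source of chemokines and acute-phase proteins when cytokines act on them. MEF preparations hold cells of other kinds beside fibroblasts, among them macrophages, endothelial cells and muscle precursors. The labelled cell type was checked on its markers at both days. Vim, the mesenchymal intermediate filament gene, was at 13.94 and 13.94 at day 0 and at 13.24 and 13.27 at day 10 (log2 change -0.68 ± 0.15, adjusted p = 0.00248). Col1a1, which encodes a chain of the main fibrillar collagen, stood at 11.70 and 11.77 on the day 0 arrays and at 10.46 and 10.49 on the day 10 arrays, a log2 change of -1.25 ± 0.16 (adjusted p = 6.57e-05). Pdgfra, a receptor gene of mesenchymal cells, went from 9.94 and 9.70 to 11.85 and 11.99, which is a log2 change of 2.10 ± 0.20 with an adjusted p of 5.59e-06. These genes lay far above 5.25, the level used to filter dim genes, on each of the 4 arrays, with Vim and Col1a1 lower and Pdgfra higher at day 10.

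By day 10 of 6TCF, most tested genes of actin-based contraction and of collagen crosslinking were lower, and most of those of the acute-phase response, of Wnt feedback and of retinoid metabolism were higher. 18 of 18 contractile genes tested were lower and 11 of 12 acute-phase and complement genes were higher, against 43.2% of all genes called in either direction. The pair of culture days differed widely. Of 10674 genes tested, limma called 4616 (43.2%), 2478 higher at day 10 (23.2%) and 2138 lower (20.0%). At least 2-fold changes among them numbered 807 higher (7.56%) and 495 lower (4.64%), and the arrays of the groups did not overlap for 8343 genes (78.2%). The median log2 change over all genes tested was -0.010. Without 6TCF day 0 replicate 2 the lower calls numbered 1422. The median change of the 807 genes was 1.11 from day 0 to day 5 and 0.50 from day 5 to day 10, and that of the 495 genes was -0.93 and -0.44. Of all genes tested, 27.7% were called at day 5 against day 0 and 15.8% at day 10 against day 5. These steps share arrays with the comparison that chose the genes, so the values are descriptions.

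The 12 largest rises included genes of inflammation, of the matrix and of neuropeptide signalling. Saa3, an acute-phase apolipoprotein gene, was at 6.19 and 5.68 at day 0 and at 12.73 and 12.59 at day 10 (log2 change 6.73 ± 0.25, adjusted p = 3.05e-09). Ccl8, a chemokine gene, stood at 5.42 and 5.60 on the day 0 arrays and at 12.06 and 12.10 on the day 10 arrays, a log2 change of 6.57 ± 0.22 (adjusted p = 1.98e-09). Mmp3, which encodes a protease that cuts many matrix proteins, went from 6.99 and 6.89 to 12.11 and 12.20, which is a log2 change of 5.21 ± 0.16 with an adjusted p of 1.02e-09. No overlap between the days was a condition for choosing these genes, and 78.2% of all genes tested met it. The pair of arrays of a day lay close together. Lum, which encodes the proteoglycan lumican, was at 7.48 and 7.14 at day 0 and at 12.57 and 12.50 at day 10 (log2 change 5.23 ± 0.15, adjusted p = 1.02e-09). Kera, which encodes keratocan, a proteoglycan known from the cornea, stood at 4.55 and 4.59 on the day 0 arrays and at 9.11 and 9.30 on the day 10 arrays, a log2 change of 4.63 ± 0.15 (adjusted p = 1.73e-09). Car3, the carbonic anhydrase gene of fat and slow muscle, went from 5.998 and 5.81 to 10.84 and 11.05, which is a log2 change of 5.04 ± 0.16 with an adjusted p of 1.69e-09. Lum was already at 12.53 and 12.50 on the day 5 arrays and Car3 at 10.73 and 10.60, whereas Kera stood at 6.51 and 6.99 then and rose by a further 2.46 ± 0.15, in a step in which 8.69% of genes were called higher. The other genes among the 12 largest rises were the sialic acid lyase gene Npl, the glutamate receptor subunit gene Gria1, the gene Lratd1, the angiotensin receptor gene Agtr2, the opioid-like peptide precursor gene Pnoc and the Wnt-induced receptor gene Tnfrsf19. Their changes ran from 4.51 ± 0.18 for Tnfrsf19 to 4.91 ± 0.18 for Npl. Tnfrsf19 changed by 2.09 when its 3 probe sets were averaged in place of taking the brightest.

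The 12 largest falls included genes of the matrix and of the growth factor response. Ccn2, the connective tissue growth factor gene, was at 13.62 and 13.76 at day 0 and at 9.45 and 9.39 at day 10 (log2 change -4.27 ± 0.13, adjusted p = 1.04e-09). Col11a1, a fibrillar collagen gene of cartilage, stood at 10.04 and 9.98 on the day 0 arrays and at 5.58 and 5.96 on the day 10 arrays, a log2 change of -4.24 ± 0.23 (adjusted p = 6.54e-08). Col8a1, a short-chain collagen gene, went from 10.78 and 10.84 to 6.71 and 6.57, which is a log2 change of -4.17 ± 0.16 with an adjusted p of 4.43e-09. The falls too were chosen for no overlap between the days. The Ccn2 level on either day 10 array was under that on the day 5 arrays, 10.17 and 9.91. Tll1, a protease gene of the procollagen-processing family, was at 8.61 and 8.91 at day 0 and at 4.77 and 4.90 at day 10 (log2 change -3.92 ± 0.18, adjusted p = 1.37e-08). Hbegf, which encodes a ligand of the EGF receptor, stood at 10.33 and 10.51 on the day 0 arrays and at 6.77 and 6.79 on the day 10 arrays, a log2 change of -3.64 ± 0.24 (adjusted p = 2.57e-07). Egr1, an immediate early transcription factor gene, went from 11.06 and 11.12 to 7.87 and 8.12, which is a log2 change of -3.09 ± 0.23 with an adjusted p of 6.73e-07. The day 5 arrays of Hbegf (8.31 and 7.34) differed from each other more than those of day 0 or day 10. Ankrd1, a gene induced by YAP and by mechanical load, was at 10.60 and 10.90 at day 0 and at 7.72 and 7.92 at day 10 (log2 change -2.93 ± 0.17, adjusted p = 8.03e-08). Thbs1, which encodes an activator of latent TGF-beta, stood at 13.11 and 13.12 on the day 0 arrays and at 10.15 and 10.27 on the day 10 arrays, a log2 change of -2.91 ± 0.20 (adjusted p = 3.88e-07). The remaining genes among the 12 largest falls were C1qtnf3, the elastic fibre gene Fbln2, the cartilage collagen gene Col2a1 and the basement membrane gene Tinagl1, with changes from -3.29 ± 0.27 for C1qtnf3 to -3.00 ± 0.18 for Tinagl1.

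**Figure D1:**
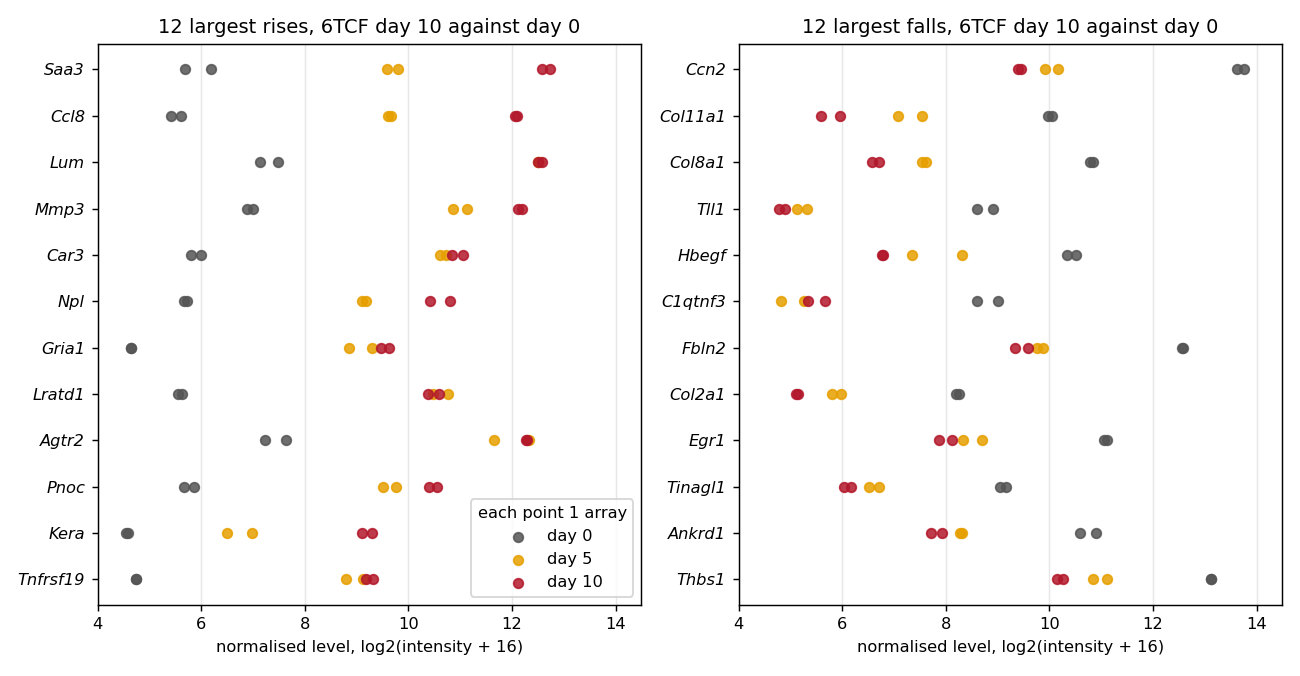
Normalised level, log2(intensity + 16), of the 12 largest rises and 12 largest falls at day 10 of 6TCF, each point 1 array of 6TCF at day 0, 5 or 10. The day 10 points lie apart from the day 0 points in every row because the genes were chosen so. Saa3 reaches 12.73 and 12.59 from 6.19 and 5.68.

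The genes were then read in 48 lists of pathways and cell types, in which 802 genes were tested. Each list is described by its counts of called genes and its median change. These are to be read against 23.2% of all genes called higher, 20.0% called lower and an all-gene median of -0.010. The actin contractile list had the lowest median, -1.68, and the acute-phase and complement list the highest, 1.80.

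**Figure D2:**
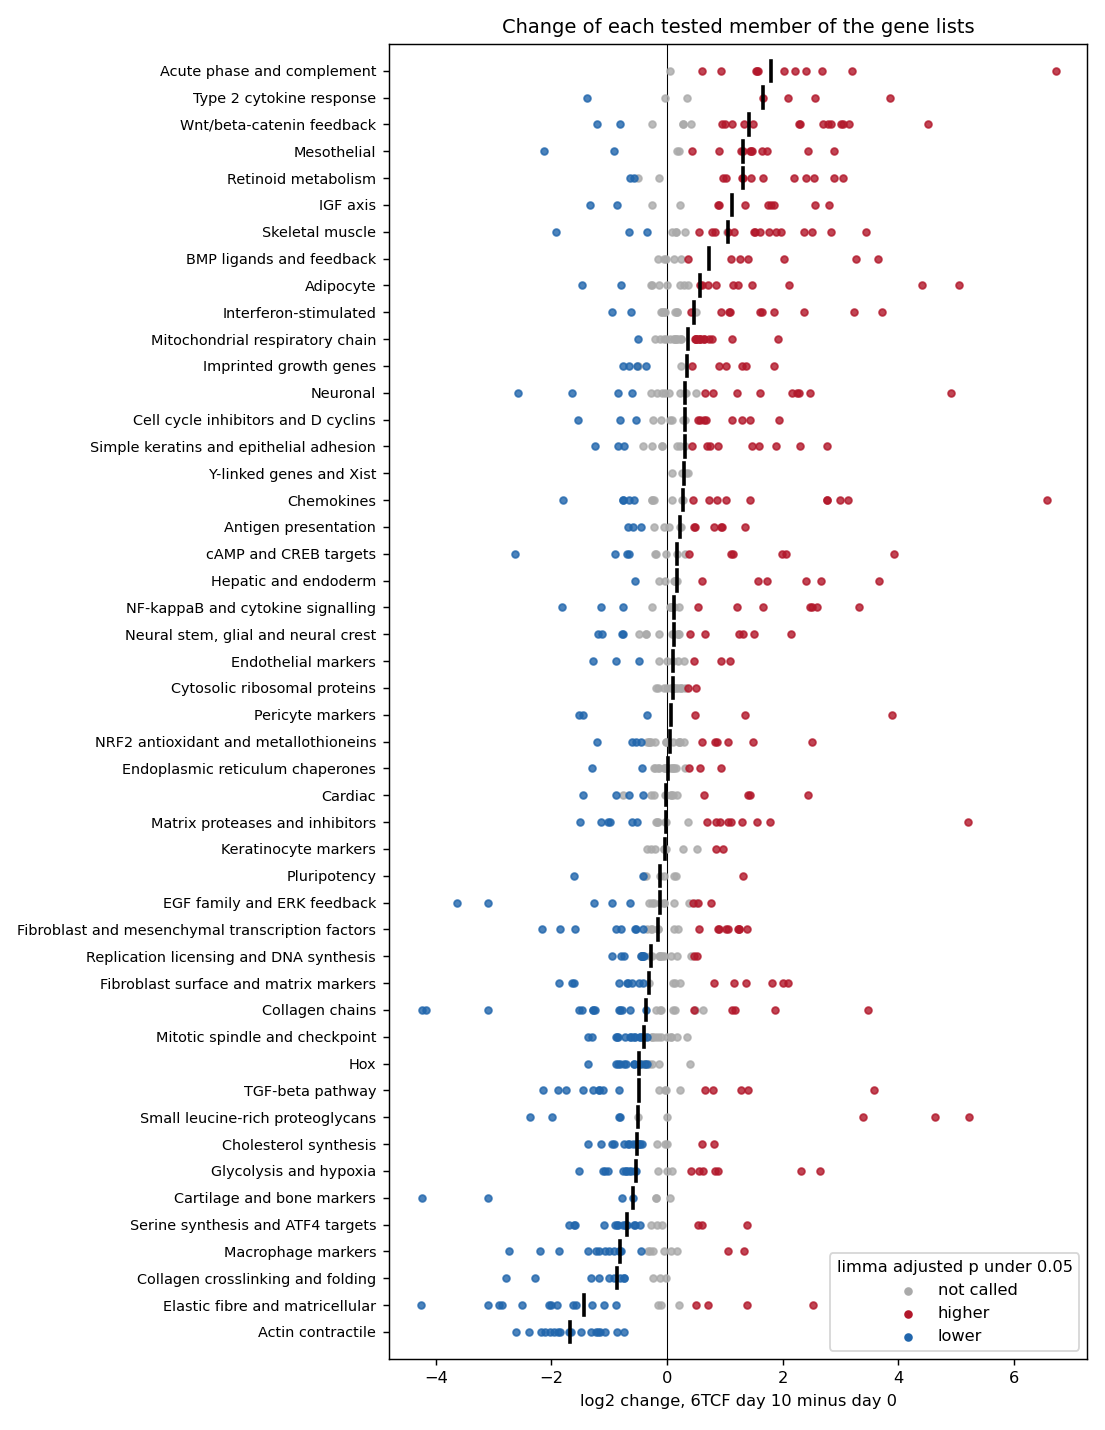
Log2 change from day 0 to day 10 of 6TCF for each tested gene of the 48 lists, each point 1 gene coloured by its limma call, with a black bar at the list's median. Lists are ordered by median, from 1.80 for acute-phase and complement genes to -1.68 for actin contractile genes.

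All 18 contractile genes tested were lower at day 10. Cnn1, the smooth muscle calponin gene, went from 10.57 and 10.53 to 8.04 and 7.83, which is a log2 change of -2.61 ± 0.12 with an adjusted p of 1.37e-08. Tagln, which encodes the actin-binding protein transgelin, was at 13.72 and 13.65 at day 0 and at 11.41 and 11.17 at day 10 (log2 change -2.39 ± 0.13, adjusted p = 5.85e-08). Actn1, which encodes the actin crosslinker alpha-actinin, stood at 12.73 and 12.74 on the day 0 arrays and at 10.48 and 10.61 on the day 10 arrays, a log2 change of -2.19 ± 0.16 (adjusted p = 7.29e-07). Both day 10 arrays were below both day 0 arrays for these genes, and also for the other members of the list. Vcl, the focal adhesion gene vinculin, went from 12.44 and 12.46 to 10.22 and 10.45, which is a log2 change of -2.11 ± 0.19 with an adjusted p of 3.53e-06. Acta2, which encodes smooth muscle alpha-actin, was at 14.11 and 14.09 at day 0 and at 12.52 and 12.35 at day 10 (log2 change -1.67 ± 0.13, adjusted p = 8.26e-07). Srf, the transcription factor that switches on this programme, stood at 8.45 and 8.48 on the day 0 arrays and at 7.12 and 7.43 on the day 10 arrays, a log2 change of -1.19 ± 0.14 (adjusted p = 3.50e-05). The smallest fall of the list was that of Cald1, at -0.74 ± 0.14. Averaged over its probe sets Acta2 was at -0.96. Myh11, the smooth muscle myosin gene, changed by -1.07 ± 0.28 and was not called without 6TCF day 0 replicate 2 (-0.96) or without 6TCF day 10 replicate 1 (-1.01), and also against all 4 day 0 arrays of both arms (-0.37). By day 5 the list's median was already -1.03, and the actin 3' minus 5' signal moved in the same arrays.

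SRF binds the CArG box, and the stretch of 250 bases upstream of the start was searched for it on both strands, because the contractile genes fell together. Promoters came from RefSeq (GRCm38.p6) and matched 16 of the 18 contractile genes. It is 1 of 10 motifs searched in the 48 lists. The box was found in 4 of the 16 (25%), against 1.56% of the 8565 tested genes with a promoter. The share of all 27025 genes with a promoter was 1.62%, and a match is a description of letters and not a site of binding. All 16 genes were lower at day 10, so the list gives no comparison by call. A part of SRF in the falls was not tested. The box was also in 3 of 14 cardiac genes (21.4%) and 2 of 10 imprinted genes (20%). The TEAD letters GGAATG were in 7 of the 16 contractile genes (43.8%), against 13.3% of the tested genes. The windows below run 5′ to 3′ in the direction of the gene, with the box in capitals. They are from chr10:79988504-79988593 (Cnn2, plus strand, box starting 56 bases upstream), chr2:156775263-156775352 (Myl9, plus strand, 161 bases), chr14:20929148-20929220 (Vcl, plus strand, 227 bases) and chr17:46556195-46556284 (Srf, minus strand, 82 bases).
Cnn2: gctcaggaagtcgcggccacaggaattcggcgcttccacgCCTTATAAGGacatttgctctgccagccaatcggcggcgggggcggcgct
Myl9: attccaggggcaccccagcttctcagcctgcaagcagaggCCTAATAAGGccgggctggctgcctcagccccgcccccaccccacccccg
Vcl: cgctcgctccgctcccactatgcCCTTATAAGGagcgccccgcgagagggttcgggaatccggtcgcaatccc
Srf: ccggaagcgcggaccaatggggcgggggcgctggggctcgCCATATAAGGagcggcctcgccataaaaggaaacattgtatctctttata
Srf holds another box, starting 62 bases upstream and inside the same window. Cnn2, a non-muscle calponin gene, changed by -1.70 ± 0.13, and Myl9, the regulatory myosin light chain gene, changed by -1.86 ± 0.15.

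TGF-beta pathway genes changed in both directions. TGF-beta ligands act through their receptors and SMAD proteins, which induce their own inhibitors. Skil, a SMAD corepressor induced by TGF-beta, went from 10.02 and 10.10 to 7.81 and 8.03, which is a log2 change of -2.14 ± 0.14 with an adjusted p of 2.44e-07. Inhba, which encodes the activin A subunit, was at 11.801 and 12.01 at day 0 and at 9.93 and 10.11 at day 10 (log2 change -1.88 ± 0.21, adjusted p = 1.76e-05). Tgif1, another repressor of SMAD signalling, stood at 8.89 and 8.92 on the day 0 arrays and at 7.13 and 7.17 on the day 10 arrays, a log2 change of -1.75 ± 0.12 (adjusted p = 5.16e-07). Day 10 arrays were the lower ones for each. The inhibitory SMAD gene Smad7 (-1.18 ± 0.13), the feedback gene Pmepa1 (-1.29 ± 0.17) and the latent TGF-beta binding protein gene Ltbp1 (-1.45 ± 0.12) were lower too. Inhbb, which encodes the activin B subunit, went from 8.25 and 8.22 to 11.78 and 11.87, which is a log2 change of 3.59 ± 0.17 with an adjusted p of 1.81e-08. Tgfb2, a TGF-beta ligand gene, was at 9.29 and 9.31 at day 0 and at 10.72 and 10.69 at day 10 (log2 change 1.41 ± 0.14, adjusted p = 1.00e-05). Tgfbi, a matrix protein gene known to be induced by TGF-beta, stood at 9.68 and 9.37 on the day 0 arrays and at 10.70 and 10.90 on the day 10 arrays, a log2 change of 1.28 ± 0.18 (adjusted p = 1.58e-04). These were high on both day 10 arrays. In all, 9 of 18 were lower, 5 higher and 4 not called, with a median of -0.49, and with averaged probe sets 3 were higher.

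Collagen genes changed in both directions. Col18a1, a basement membrane collagen gene, went from 7.45 and 7.63 to 10.87 and 11.16, which is a log2 change of 3.48 ± 0.17 with an adjusted p of 2.31e-08. Col6a2, a chain of the beaded-filament collagen, was at 10.25 and 9.94 at day 0 and at 11.87 and 12.05 at day 10 (log2 change 1.86 ± 0.20, adjusted p = 1.39e-05). Col5a1, which regulates fibril diameter, stood at 11.63 and 11.62 on the day 0 arrays and at 10.06 and 10.15 on the day 10 arrays, a log2 change of -1.52 ± 0.22 (adjusted p = 1.74e-04). Col18a1 and Col6a2 were high on both day 10 arrays and Col5a1 was low. Of 25 chains tested, 5 were higher, 13 lower and 7 not called (median -0.37). Col1a2 (-0.37 ± 0.11) was not called with median centring, at -0.18, or without 6TCF day 0 replicate 1 (-0.35), day 0 replicate 2 (-0.39) or day 10 replicate 1 (-0.31). Enzymes that crosslink and fold collagen were lower in 9 of 12 cases and higher in none (median -0.87). Lox, the lysyl oxidase gene, went from 13.06 and 13.15 to 10.30 and 10.33, which is a log2 change of -2.79 ± 0.18 with an adjusted p of 2.33e-07. P4ha2, a prolyl hydroxylase subunit gene, was at 9.31 and 9.23 at day 0 and at 7.96 and 7.96 at day 10 (log2 change -1.31 ± 0.13, adjusted p = 1.11e-05). Both were low on the day 10 arrays, and Lox was as low at day 5, 10.18 and 10.13.

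Small leucine-rich proteoglycans coat collagen fibrils, and their genes split sharply. Dcn, which encodes decorin, stood at 10.42 and 10.07 on the day 0 arrays and at 13.60 and 13.65 on the day 10 arrays, a log2 change of 3.38 ± 0.13 (adjusted p = 3.20e-09). Bgn, which encodes biglycan, went from 13.63 and 13.47 to 11.41 and 11.71, which is a log2 change of -1.99 ± 0.18 with an adjusted p of 4.18e-06. Aspn, which encodes asporin, was at 9.11 and 9.14 at day 0 and at 6.84 and 6.69 at day 10 (log2 change -2.36 ± 0.38, adjusted p = 3.53e-04). Decorin was high and the other pair low on both day 10 arrays. With Lum and Kera, 3 of 9 were higher and 4 lower (median -0.50). Among elastic fibre and matricellular genes, 13 of 20 were lower and 4 higher (median -1.43). Fbln5, an elastic fibre assembly gene, stood at 12.10 and 11.95 on the day 0 arrays and at 9.23 and 9.11 on the day 10 arrays, a log2 change of -2.86 ± 0.14 (adjusted p = 2.46e-08). Ccn4, a matricellular gene induced by Wnt, went from 11.10 and 11.17 to 8.58 and 8.66, which is a log2 change of -2.52 ± 0.14 with an adjusted p of 7.90e-08. Fbln1, a fibulin gene, was at 7.56 and 7.43 at day 0 and at 10.02 and 10.03 at day 10 (log2 change 2.53 ± 0.16, adjusted p = 1.88e-07). Fbln1 was the high one of these at day 10 and the others were low. Fn1, the fibronectin gene, changed by -1.62 ± 0.24, the tenascin gene Tnc by -1.91 ± 0.22 and Thbs2 by 1.38 ± 0.16.

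Matrix proteases and their inhibitors had a median of -0.022, with 9 of 21 higher and 6 lower. Beside Mmp3, the stromelysin gene Mmp10 (1.79 ± 0.22), the metalloprotease gene Mmp19 (1.55 ± 0.14) and the gelatinase gene Mmp2 (1.30 ± 0.21) were higher. Timp3, a matrix-bound inhibitor of metalloproteases, stood at 11.56 and 11.49 on the day 0 arrays and at 10.56 and 10.46 on the day 10 arrays, a log2 change of -1.02 ± 0.15 (adjusted p = 1.64e-04). Mmp16, a membrane-bound metalloprotease gene, went from 7.61 and 7.56 to 5.94 and 6.21, which is a log2 change of -1.51 ± 0.14 with an adjusted p of 4.62e-06. Both were lower on each day 10 array. Mmp19 averaged over its probe sets was at 1.03.

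Acute-phase and complement genes were higher in 11 of 12 cases and lower in none. The array held 15 genes of this list, and those dim in every group were not tested. C1s1, a protease gene of the classical complement pathway, was at 6.73 and 6.65 at day 0 and at 9.92 and 9.88 at day 10 (log2 change 3.21 ± 0.16, adjusted p = 2.69e-08). Serping1, which encodes the C1 inhibitor, stood at 7.37 and 7.55 on the day 0 arrays and at 10.09 and 10.18 on the day 10 arrays, a log2 change of 2.68 ± 0.16 (adjusted p = 1.44e-07). Hp, which encodes haptoglobin, went from 5.63 and 5.32 to 7.78 and 7.58, which is a log2 change of 2.21 ± 0.19 with an adjusted p of 2.15e-06. Day 10 arrays were higher for each, with the day 5 arrays between them and day 0. The copper-binding ceruloplasmin gene Cp changed by 2.40 ± 0.13 and the lipocalin gene Lcn2 by 0.60 ± 0.11. Both 6TCF means of Lcn2 (4.64 and 5.24) lay below the filter on low values at log2 5.25. It was tested through the SGCF day 10 arrays and is counted among the 11. From day 5 to day 10, C1s1 rose by 2.19 ± 0.16 and Cp by 1.22 ± 0.13.

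Chemokines attract leukocytes, and the genes that changed were of several kinds. Ccl11, the eotaxin gene, was at 4.79 and 4.88 at day 0 and at 7.88 and 8.03 at day 10 (log2 change 3.13 ± 0.14, adjusted p = 1.05e-08). Cxcl13, a B cell attractant gene, stood at 5.42 and 5.76 on the day 0 arrays and at 8.56 and 8.60 on the day 10 arrays, a log2 change of 2.99 ± 0.14 (adjusted p = 2.31e-08). Cxcl1, a neutrophil attractant gene, went from 7.03 and 6.85 to 9.72 and 9.70, which is a log2 change of 2.77 ± 0.20 with an adjusted p of 6.18e-07. All 3 were high on both day 10 arrays. Cxcl12, the stromal chemokine gene that holds progenitors in place, was at 11.74 and 11.66 at day 0 and at 10.01 and 9.78 at day 10 (log2 change -1.80 ± 0.19, adjusted p = 1.21e-05). Cxcl12 was low on both day 10 arrays. Another probe set of Cxcl13 changed by 4.75 ± 0.18. With the 6 arrays of 6TCF normalised alone, which also chooses the brightest probe set anew, Cxcl13 changed by 5.11. Of 21 chemokine genes, 10 were higher, 5 lower and 6 not called (median 0.27). The lower calls numbered 3 without 6TCF day 10 replicate 1 and 3 without 6TCF day 10 replicate 2. Ccl7 changed by 1.43 ± 0.21, but against all 4 day 0 arrays of both arms it was not called (0.38).

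Genes of NF-kappaB and cytokine signalling moved in both directions. Il33, an alarmin cytokine gene, stood at 5.71 and 5.83 on the day 0 arrays and at 9.07 and 9.13 on the day 10 arrays, a log2 change of 3.33 ± 0.16 (adjusted p = 2.64e-08). Socs3, a feedback inhibitor of cytokine receptors, went from 8.06 and 7.93 to 10.57 and 10.46, which is a log2 change of 2.52 ± 0.16 with an adjusted p of 1.69e-07. Ptges, a prostaglandin E synthase gene, was at 7.44 and 7.58 at day 0 and at 9.94 and 10.03 at day 10 (log2 change 2.47 ± 0.16, adjusted p = 1.95e-07). These were high on both day 10 arrays. Ptgs2, the inducible cyclooxygenase gene, stood at 11.86 and 11.98 on the day 0 arrays and at 9.80 and 10.39 on the day 10 arrays, a log2 change of -1.82 ± 0.26 (adjusted p = 1.46e-04). Ptgs2 was low at day 10, with its replicates further apart than those of the others. Icam1, a leukocyte adhesion gene, changed by 2.59 ± 0.14, the NF-kappaB inhibitor gene Nfkbia by 1.21 ± 0.13 and Csf1, the macrophage growth factor gene, by -1.15 ± 0.18. In this list 7 of 17 were higher and 3 lower (median 0.12), and the cytokine gene Il6 was not called (0.21 ± 0.22). Among genes of the response to the type 2 cytokines IL-4 and IL-13, 4 of 7 were higher and 1 lower (median 1.66). Retnla, a secreted protein gene induced by IL-4, went from 4.97 and 4.92 to 8.88 and 8.72, which is a log2 change of 3.86 ± 0.23 with an adjusted p of 1.24e-07. Il13ra2, the decoy receptor gene for IL-13, was at 5.10 and 5.22 at day 0 and at 7.84 and 7.59 at day 10 (log2 change 2.55 ± 0.15, adjusted p = 1.16e-07). Arg1, which encodes arginase, stood at 5.96 and 6.23 on the day 0 arrays and at 4.66 and 4.77 on the day 10 arrays, a log2 change of -1.38 ± 0.14 (adjusted p = 7.49e-06). Retnla and Il13ra2 were high at day 10, and Arg1 was low. Against all 4 day 0 arrays Arg1 was not called (-0.72).

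Among 20 interferon-stimulated genes, 10 were higher, 2 lower and 8 not called (median 0.46). Those that rose included guanylate-binding and immunity-related GTPases, which act against intracellular microbes, the transcription factor gene Irf1 (1.08 ± 0.13) and Bst2, which tethers viruses to the cell (1.62 ± 0.15). Gbp2, a guanylate-binding protein gene, went from 6.84 and 6.70 to 10.13 and 10.87, which is a log2 change of 3.73 ± 0.25 with an adjusted p of 3.28e-07. Iigp1, an immunity-related GTPase gene, was at 5.56 and 5.42 at day 0 and at 8.73 and 8.71 at day 10 (log2 change 3.23 ± 0.18, adjusted p = 8.29e-08). Igtp, another gene of that family, stood at 6.69 and 6.60 on the day 0 arrays and at 8.52 and 8.05 on the day 10 arrays, a log2 change of 1.64 ± 0.19 (adjusted p = 3.26e-05). All their day 10 levels were above the day 0 levels. Irgm1, a regulator of the same GTPases, went from 8.90 and 8.95 to 7.92 and 7.998, which is a log2 change of -0.96 ± 0.19 with an adjusted p of 0.00136. Oas1a, an antiviral oligoadenylate synthetase gene, was at 6.92 and 6.98 at day 0 and at 6.28 and 6.38 at day 10 (log2 change -0.62 ± 0.23, adjusted p = 0.045). Both were lower at day 10. Oas1a lost its call in each fit that left out 1 array, with values from -0.67 to -0.58, and the list then had 1 lower gene.

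Many interferon-stimulated genes carry the interferon-stimulated response element, searched here as a GAAA, any pair of bases and another GAAA on both strands of the same 250 bases. It was found in 10 of the 16 listed genes with a RefSeq promoter (62.5%). The share was 3.22% of the 8565 tested genes and 3.46% of all genes with a promoter. By call, the letters were in 6 of 8 genes that were higher, 2 of 2 that were lower and 2 of 6 that were not called. In the same 16 genes, the NF-kappaB motif, searched as a GGG, any 5 bases and CC, was in 11 (68.8%). That is close to its 65.5% among the tested genes, with 48.7% among all genes with a promoter. The gamma-activated site letters TTCNNNGAA were in 6 (37.5%), against 7.1% of the tested genes and 8.13% of all genes with a promoter. The windows below are shown because genes with the element lay on both sides. They are from chr3:142620564-142620653 (Gbp2, plus strand, element starting 59 bases upstream), chr11:58199482-58199555 (Igtp, plus strand, 34 bases), chr11:48871421-48871490 (Irgm1, minus strand, 30 bases) and chr5:120907526-120907585 (Oas1a, minus strand, 20 bases), with the element in capitals as read on the strand of the gene.
Gbp2: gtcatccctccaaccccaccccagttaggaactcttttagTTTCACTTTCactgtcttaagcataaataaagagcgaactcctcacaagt
Igtp: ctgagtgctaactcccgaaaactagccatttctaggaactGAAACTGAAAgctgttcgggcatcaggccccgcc
Irgm1: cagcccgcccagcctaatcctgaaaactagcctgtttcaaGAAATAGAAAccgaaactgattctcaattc
Oas1a: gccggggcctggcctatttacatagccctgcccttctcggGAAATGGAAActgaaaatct
In Gbp2 the element lies on the opposite strand, so its reverse complement is what stands in capitals. Irgm1 and Oas1a each hold a further match that overlaps the one shown.

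Antigen presentation genes had 6 of 14 higher and 3 lower (median 0.23). Psmb10, an immunoproteasome subunit gene, stood at 7.99 and 7.86 on the day 0 arrays and at 9.25 and 9.28 on the day 10 arrays, a log2 change of 1.34 ± 0.12 (adjusted p = 3.84e-06). Tapbp, which loads peptides onto class I molecules, went from 8.61 and 8.45 to 9.47 and 9.46, which is a log2 change of 0.93 ± 0.15 with an adjusted p of 4.10e-04. H2-D1, a class I heavy chain gene, was at 9.54 and 9.43 at day 0 and at 8.82 and 8.81 at day 10 (log2 change -0.67 ± 0.14, adjusted p = 0.00184). The proteasome and loading genes were high at day 10 and the heavy chain gene was low. The symbol H2-K1, another class I heavy chain gene, changed by -0.58 ± 0.15, was not called without 6TCF day 10 replicate 2 (-0.54), and stood at 0.15 when its probe sets were averaged. Class I genes are near-identical copies of each other, so which of them a probe set reads is uncertain.

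Macrophages can make many of these transcripts, and their markers were measured in the same arrays. Of 21 macrophage markers tested, 13 were lower at day 10, 2 higher and 6 not called (median -0.82). The list's median change from day 0 was lower at day 5, at -1.20, than at day 10. The mean level of the list was 7.09 and 7.06 at day 0 and 6.43 and 6.32 at day 10. Ptprc, the leukocyte antigen CD45 gene, stood at 5.56 and 5.68 on the day 0 arrays and at 4.84 and 4.75 on the day 10 arrays, a log2 change of -0.82 ± 0.13 (adjusted p = 2.93e-04). Ctss, a lysosomal protease gene, went from 9.09 and 9.12 to 6.33 and 6.39, which is a log2 change of -2.74 ± 0.29 with an adjusted p of 1.26e-05. Cd14, a receptor gene for bacterial lipopolysaccharide, was at 6.71 and 6.56 at day 0 and at 7.87 and 8.05 at day 10 (log2 change 1.33 ± 0.14, adjusted p = 1.24e-05). Cd14 was the high one at day 10, and the other pair was low, with Ptprc below 5.25 on both day 10 arrays. The macrophage genes Mpeg1 and C1qa changed by -2.20 ± 0.17 and -1.88 ± 0.14. Their day 10 means of 5.51 and 5.58 were near the filter level of 5.25. The part of macrophages in the inflammatory results was not tested. In bulk RNA, fewer cells of a type and less RNA per cell cannot be told apart.

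**Figure D3:**
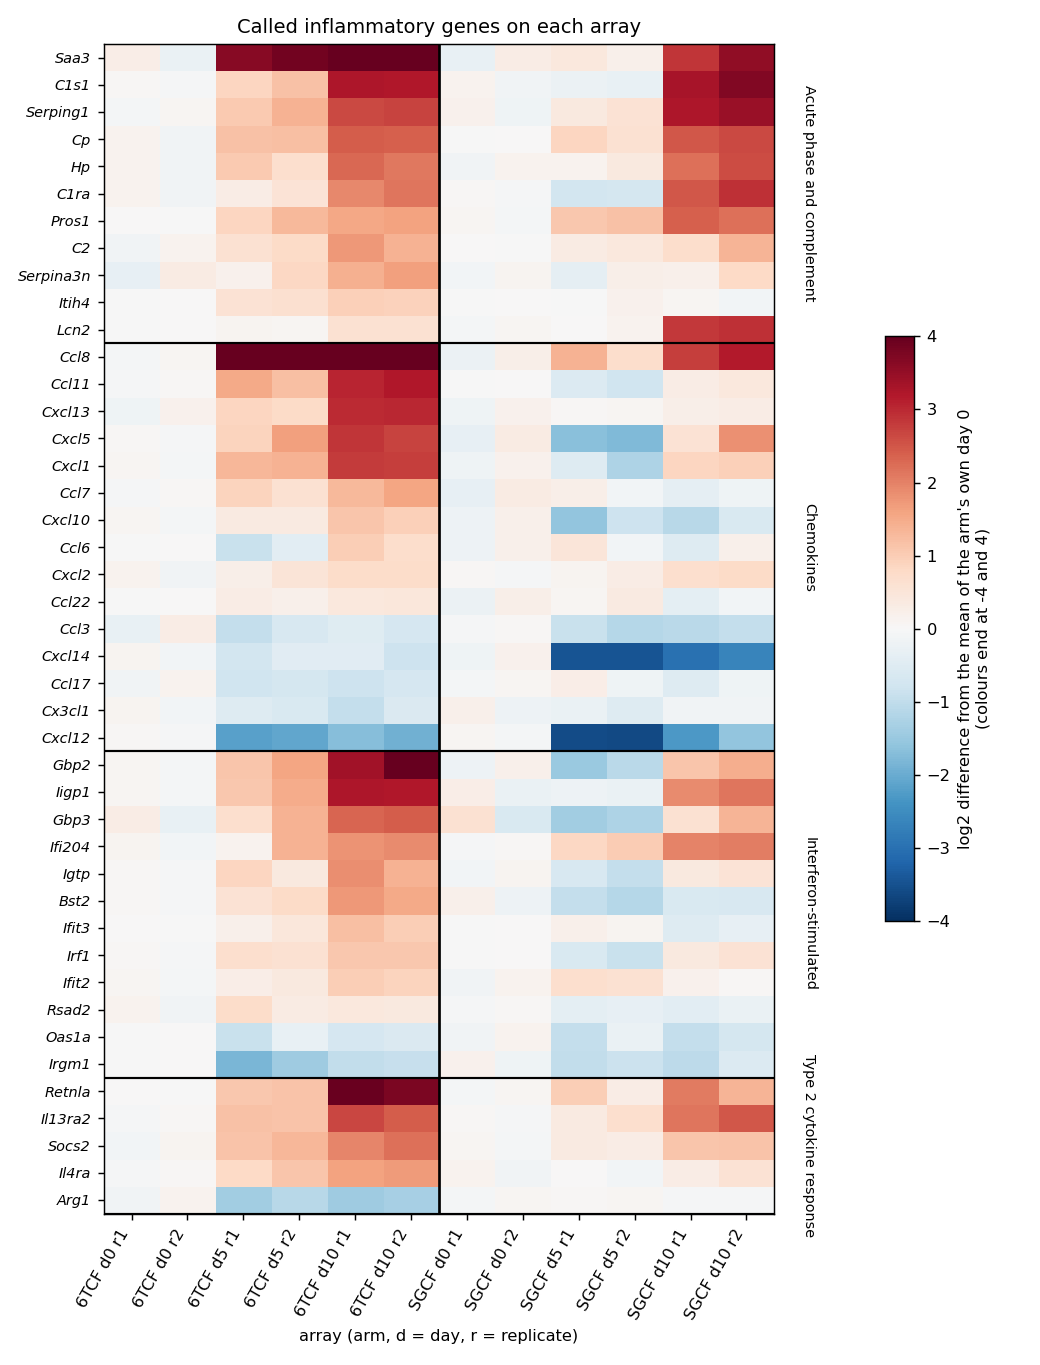
Heat map of the called acute-phase, chemokine, interferon-stimulated and type 2 genes (rows) on all 12 arrays (columns), coloured by the log2 difference from the mean of the arm's own day 0, with colours ending at -4 and 4. The 6TCF column of Retnla deepens from day 5 to day 10, where it stood at 6.03 and 6.08 and then at 8.88 and 8.72.

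Wnt/beta-catenin signalling induces its own inhibitors, and most of these genes were higher. Axin2, which helps destroy beta-catenin, stood at 5.77 and 5.83 on the day 0 arrays and at 8.86 and 8.77 on the day 10 arrays, a log2 change of 3.01 ± 0.13 (adjusted p = 9.73e-09). Apcdd1, a membrane-bound Wnt inhibitor gene, went from 8.88 and 8.83 to 11.89 and 11.91, which is a log2 change of 3.04 ± 0.22 with an adjusted p of 5.29e-07. Sfrp2, a secreted Wnt antagonist gene, was at 7.68 and 7.68 at day 0 and at 10.83 and 10.82 at day 10 (log2 change 3.15 ± 0.13, adjusted p = 8.45e-09). The day 10 arrays were far above day 0, and the day 5 arrays of Axin2 (9.001 and 8.73) and Sfrp2 (10.84 and 10.83) were at similar levels. Notum, which strips the lipid from Wnt, stood at 5.94 and 6.07 on the day 0 arrays and at 8.74 and 8.97 on the day 10 arrays, a log2 change of 2.84 ± 0.14 (adjusted p = 3.23e-08). Lgr5, a receptor gene for R-spondins, went from 6.18 and 5.74 to 8.22 and 8.28, which is a log2 change of 2.29 ± 0.22 with an adjusted p of 5.27e-06. Myc, a growth-promoting target of the pathway, was at 8.93 and 9.05 at day 0 and at 7.70 and 7.85 at day 10 (log2 change -1.21 ± 0.14, adjusted p = 2.21e-05). Notum and Lgr5 were high at day 10 and Myc was low. In all, 14 of 20 were higher and 2 lower (median 1.41). The other lower gene was the D cyclin gene Ccnd1 (-0.81 ± 0.20), which was not called without 6TCF day 10 replicate 1 (-0.67). Averaged over its probe sets Axin2 was at 1.64, and against all 4 day 0 arrays Lgr5 was not called, at 1.10.

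BMP ligands and the Id genes they induce were higher in 7 of 12 cases and lower in none (median 0.73). Bmp2, a BMP ligand gene, stood at 6.16 and 6.15 on the day 0 arrays and at 9.67 and 9.96 on the day 10 arrays, a log2 change of 3.66 ± 0.26 (adjusted p = 4.50e-07). Gdf10, a related ligand gene, went from 6.90 and 6.88 to 10.12 and 10.18, which is a log2 change of 3.26 ± 0.16 with an adjusted p of 2.45e-08. Id1, an inhibitor of helix-loop-helix factors, was at 9.79 and 9.97 at day 0 and at 11.81 and 11.996 at day 10 (log2 change 2.02 ± 0.12, adjusted p = 1.53e-07). Both day 10 arrays were high for these genes. Bmp2 had been higher still at day 5, at 11.27 and 11.03, and changed by -1.34 ± 0.26 from then to day 10. Retinoid genes were higher in 11 of 15 cases and lower in 2 (median 1.31). Aldh1a7, an aldehyde dehydrogenase gene, stood at 7.98 and 8.13 on the day 0 arrays and at 11.17 and 11.04 on the day 10 arrays, a log2 change of 3.05 ± 0.12 (adjusted p = 4.84e-09). Rdh10, which makes retinal from retinol, went from 8.39 and 8.60 to 11.41 and 11.38, which is a log2 change of 2.90 ± 0.12 with an adjusted p of 6.27e-09. Cyp26a1, which degrades retinoic acid and is induced by it, was at 5.15 and 5.01 at day 0 and at 7.55 and 7.69 at day 10 (log2 change 2.54 ± 0.13, adjusted p = 5.21e-08). All 3 were high at day 10. Rarb, a retinoic acid receptor gene that its ligand induces, stood at 6.68 and 6.78 on the day 0 arrays and at 8.89 and 8.95 on the day 10 arrays, a log2 change of 2.19 ± 0.12 (adjusted p = 6.41e-08). Rarb too was high on both day 10 arrays. Without 6TCF day 0 replicate 2 and without 6TCF day 10 replicate 1 no retinoid gene was called lower, and without either of the other arrays 1 was.

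Insulin-like growth factor (IGF) genes were higher in 8 of 12 cases and lower in 2 (median 1.12). Those that rose were the ligands Igf1 and Igf2, the binding proteins Igfbp2 to Igfbp6 and the matrix protease gene Htra1. Igf2 (0.89 ± 0.20) was not called when its probe sets were averaged (0.53). Igfbp3, the main serum IGF binding protein gene, went from 9.53 and 9.61 to 12.33 and 12.40, which is a log2 change of 2.80 ± 0.14 with an adjusted p of 2.46e-08. Igf1, an IGF ligand gene, was at 7.85 and 7.86 at day 0 and at 9.67 and 9.54 at day 10 (log2 change 1.75 ± 0.15, adjusted p = 2.44e-06). Igf1r, the IGF receptor gene, stood at 8.48 and 8.77 on the day 0 arrays and at 7.20 and 7.37 on the day 10 arrays, a log2 change of -1.34 ± 0.18 (adjusted p = 9.19e-05). Igfbp3 and Igf1 were high at day 10 and the receptor gene was low. Igfbp4 changed by 2.56 ± 0.15 and Igfbp5 by 1.85 ± 0.21, the latter at 1.11 when its probe sets were averaged. Genes of the EGF family and of ERK feedback, with Hbegf and Egr1 among them, numbered 17. Of these, 3 were higher, 5 lower and 9 not called (median -0.12), against 23.2% of all genes higher and 20.0% lower. Spry1, a feedback inhibitor of ERK signalling, went from 9.42 and 9.38 to 8.20 and 8.08, which is a log2 change of -1.26 ± 0.13 with an adjusted p of 1.05e-05. Erbb2, an EGF receptor family gene, was at 7.09 and 7.24 at day 0 and at 6.29 and 6.12 at day 10 (log2 change -0.95 ± 0.14, adjusted p = 1.59e-04). Both were low on the day 10 arrays. The higher calls of this list fell to 1 without 6TCF day 0 replicate 1 and to 1 without 6TCF day 10 replicate 2.

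Targets of cAMP and CREB had 6 of 15 higher and 4 lower (median 0.17). Dio2, which activates thyroid hormone, stood at 5.91 and 5.79 on the day 0 arrays and at 9.62 and 9.91 on the day 10 arrays, a log2 change of 3.92 ± 0.17 (adjusted p = 9.73e-09). Pde7b, a phosphodiesterase gene that degrades cAMP, went from 5.54 and 5.204 to 7.44 and 7.42, which is a log2 change of 2.06 ± 0.13 with an adjusted p of 1.98e-07. Akap12, a scaffold gene of protein kinase A, was at 11.68 and 11.79 at day 0 and at 8.99 and 9.21 at day 10 (log2 change -2.63 ± 0.23, adjusted p = 3.46e-06). Dio2 and Pde7b were high and Akap12 low on both day 10 arrays. The metabolic coactivator gene Ppargc1a changed by 1.98 ± 0.24 and the CREB family gene Crem by 1.14 ± 0.18. Averaged over probe sets, Dio2 was at 2.32.

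Genes of other lineages were read beside the fibroblast genes. Simple keratin and epithelial adhesion genes were higher in 9 of 19 cases and lower in 3 (median 0.30). Krt18, a keratin gene of simple epithelia, stood at 8.35 and 8.16 on the day 0 arrays and at 10.98 and 11.07 on the day 10 arrays, a log2 change of 2.77 ± 0.18 (adjusted p = 2.31e-07). Krt8, the partner of Krt18 in keratin filaments, went from 7.39 and 7.48 to 9.64 and 9.84, which is a log2 change of 2.31 ± 0.26 with an adjusted p of 2.48e-05. Epcam, an epithelial adhesion gene, was at 5.10 and 5.29 at day 0 and at 7.17 and 6.998 at day 10 (log2 change 1.89 ± 0.21, adjusted p = 2.29e-05). These were high at day 10, with Epcam in between at day 5 (5.60 and 5.85). Pkp2, a desmosome gene, stood at 8.91 and 9.19 on the day 0 arrays and at 7.84 and 7.76 on the day 10 arrays, a log2 change of -1.25 ± 0.14 (adjusted p = 2.13e-05). Pkp2 was low on both day 10 arrays. Krt19 changed by 1.48 ± 0.14 and the protease inhibitor gene Spint2 by 1.59 ± 0.15. Mesothelium, the lining of body cavities, also expresses simple keratins, and its markers were higher in 11 of 15 cases and lower in 2 (median 1.31). Wt1, a transcription factor gene of mesothelium and kidney, went from 6.89 and 6.94 to 9.87 and 9.72, which is a log2 change of 2.88 ± 0.18 with an adjusted p of 2.07e-07. Rspo1, a Wnt agonist gene, was at 6.47 and 6.35 at day 0 and at 8.84 and 8.85 at day 10 (log2 change 2.44 ± 0.17, adjusted p = 3.52e-07). Msln, the mesothelin gene, stood at 8.54 and 8.23 on the day 0 arrays and at 6.35 and 6.18 on the day 10 arrays, a log2 change of -2.12 ± 0.14 (adjusted p = 3.56e-07). Msln, named for the tissue, was low at day 10, while Wt1 and Rspo1 were high.

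Transcription factors of mesenchyme were higher in 9 of 24 cases and lower in 8 (median -0.16). The lower calls numbered 5 without 6TCF day 0 replicate 2 and 5 without 6TCF day 10 replicate 1. Foxc1, a forkhead factor gene of mesenchyme, went from 8.47 and 8.36 to 6.18 and 6.30, which is a log2 change of -2.17 ± 0.15 with an adjusted p of 4.25e-07. Foxc2, its close relative, was at 8.497 and 8.67 at day 0 and at 6.67 and 6.80 at day 10 (log2 change -1.85 ± 0.15, adjusted p = 1.98e-06). Twist1, a gene of mesenchymal identity, stood at 8.85 and 8.74 on the day 0 arrays and at 9.96 and 10.13 on the day 10 arrays, a log2 change of 1.25 ± 0.13 (adjusted p = 1.32e-05). Twist1 was high and the forkhead genes were low at day 10, and Foxc2 stood at 8.39 and 8.06 on the day 5 arrays. The chromatin gene Hmga2, known from dividing embryonic cells, changed by -1.59 ± 0.20, and Osr2 by 1.38 ± 0.19. Fibroblast surface and matrix markers were higher in 6 of 19 cases and lower in 9 (median -0.31). Dpp4, a surface protease gene of adventitial fibroblasts, went from 6.19 and 6.01 to 8.05 and 8.15, which is a log2 change of 2.00 ± 0.13 with an adjusted p of 3.28e-07. Fgf7, a growth factor gene that acts on epithelium, was at 8.55 and 8.52 at day 0 and at 6.67 and 6.64 at day 10 (log2 change -1.88 ± 0.12, adjusted p = 1.61e-07). Pdgfrb, the other PDGF receptor gene, stood at 10.86 and 10.91 on the day 0 arrays and at 9.22 and 9.33 on the day 10 arrays, a log2 change of -1.61 ± 0.17 (adjusted p = 1.53e-05). Dpp4 was high and the others low on both day 10 arrays, and Cd34 changed by 1.82 ± 0.14.

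Of 22 neuronal genes, 9 were higher, 4 lower and 9 not called (median 0.32). Snap25, a gene of synaptic vesicle release, went from 4.50 and 4.59 to 6.56 and 7.46, which is a log2 change of 2.47 ± 0.25 with an adjusted p of 1.09e-05. Gap43, a growth cone gene, was at 8.56 and 8.41 at day 0 and at 10.66 and 10.65 at day 10 (log2 change 2.17 ± 0.15, adjusted p = 3.83e-07). Nptx1, a secreted synaptic protein gene, stood at 6.42 and 6.23 on the day 0 arrays and at 8.39 and 8.74 on the day 10 arrays, a log2 change of 2.24 ± 0.32 (adjusted p = 1.55e-04). All 3 were high at day 10. Map1b, a microtubule gene of growing axons, went from 9.70 and 9.84 to 6.99 and 7.41, which is a log2 change of -2.57 ± 0.22 with an adjusted p of 2.91e-06. Map1b was low at day 10, and the 2 arrays of Snap25 at day 10 differed by more than those of Gap43. Neural stem, glial and neural crest genes had 6 of 20 higher and 4 lower (median 0.12), against 23.2% and 20.0% of all genes. S100b, a calcium-binding protein gene of glia and fat, was at 5.48 and 5.18 at day 0 and at 7.41 and 7.55 at day 10 (log2 change 2.15 ± 0.15, adjusted p = 3.98e-07). Pmp22, a myelin protein gene that fibroblasts also express, stood at 10.61 and 10.61 on the day 0 arrays and at 9.41 and 9.44 on the day 10 arrays, a log2 change of -1.19 ± 0.12 (adjusted p = 1.09e-05). S100b was high and Pmp22 low on both day 10 arrays. The lower calls of that list numbered 2 without 6TCF day 0 replicate 2. Hepatic and endoderm genes had 6 of 13 higher and 1 lower (median 0.16). Apoe, an apolipoprotein gene of liver and macrophages, went from 8.22 and 8.04 to 11.84 and 11.77, which is a log2 change of 3.67 ± 0.12 with an adjusted p of 1.97e-09. Rbp4, the serum retinol carrier gene, was at 5.51 and 5.13 at day 0 and at 7.69 and 7.77 at day 10 (log2 change 2.41 ± 0.23, adjusted p = 5.34e-06). Both were higher on each day 10 array. The lower gene, Ttr (-0.55 ± 0.17), was not called without 6TCF day 0 replicate 1 (-0.38) or without 6TCF day 10 replicate 2 (-0.34).

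Skeletal muscle genes were higher in 15 of 23 cases and lower in 3 (median 1.06), and their day 10 arrays were uneven. Myl1, a fast myosin light chain gene, stood at 4.84 and 4.80 on the day 0 arrays and at 7.14 and 9.40 on the day 10 arrays, a log2 change of 3.45 ± 0.56 (adjusted p = 4.15e-04). Tnnt1, the slow muscle troponin T gene, went from 5.48 and 5.27 to 6.98 and 8.78, which is a log2 change of 2.50 ± 0.45 with an adjusted p of 7.91e-04. Actc1, a sarcomeric actin gene of heart and embryonic muscle, was at 6.42 and 6.48 at day 0 and at 7.500 and 10.30 at day 10 (log2 change 2.45 ± 0.68, adjusted p = 0.0119). Replicate 2 of day 10 was the higher array for each of them. Acta1, the skeletal muscle actin gene, stood at 10.21 and 10.31 on the day 0 arrays and at 7.73 and 8.96 on the day 10 arrays, a log2 change of -1.91 ± 0.38 (adjusted p = 0.00149). Acta1 was low at day 10, and lower on replicate 1. Without 6TCF day 10 replicate 2 the higher calls numbered 8, Tnnt1 stood at 1.60 and Actc1 was not called (1.05). Actc1 was also not called without 6TCF day 0 replicate 1 (2.42) or day 0 replicate 2 (2.48). With 6TCF day 10 replicate 1 left out it was at 3.85, and 1 muscle gene was called lower. The myogenic factor gene Myog, at 5.38 and 5.37 at day 0 and 5.62 and 7.22 at day 10, was not called. Cardiac genes had 4 of 17 higher and 4 lower (median -0.010), close to the 23.2% and 20.0% of all genes. The higher cardiac calls numbered 1 without 6TCF day 10 replicate 2 and also without either day 0 array, and the lower ones 2 without 6TCF day 10 replicate 1.

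Adipocyte genes were higher in 10 of 19 cases and lower in 2 (median 0.57). Angptl4, a secreted inhibitor of lipoprotein lipase, went from 6.95 and 7.14 to 11.47 and 11.45, which is a log2 change of 4.41 ± 0.13 with an adjusted p of 1.02e-09. Lpl, the lipoprotein lipase gene, was at 9.14 and 9.43 at day 0 and at 11.51 and 11.27 at day 10 (log2 change 2.11 ± 0.16, adjusted p = 1.02e-06). Fasn, the fatty acid synthase gene, stood at 10.25 and 10.15 on the day 0 arrays and at 8.68 and 8.78 on the day 10 arrays, a log2 change of -1.47 ± 0.18 (adjusted p = 4.29e-05). Angptl4 and Lpl were high and Fasn low at day 10. Averaged over its probe sets Angptl4 was at 2.44.

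Markers of other cell types that such a culture can hold were read too. Endothelial markers had 3 of 11 higher and 3 lower (median 0.11), against 23.2% and 20.0% of all genes. Their mean level was 6.01 and 5.86 at day 0 and 5.89 and 6.03 at day 10. Pericyte markers had 3 of 6 higher and 3 lower (median 0.066). Kcnj8, a potassium channel gene of pericytes and smooth muscle, went from 6.05 and 6.05 to 10.04 and 9.84, which is a log2 change of 3.89 ± 0.15 with an adjusted p of 4.48e-09. Mcam, an adhesion gene of vessel walls, was at 8.62 and 8.63 at day 0 and at 7.07 and 7.15 at day 10 (log2 change -1.52 ± 0.13, adjusted p = 2.73e-06). The channel gene was high and Mcam low on both day 10 arrays. Cartilage and bone markers had 4 of 7 lower and none higher (median -0.59), and 2 lower without 6TCF day 0 replicate 1 or without 6TCF day 10 replicate 1. Keratinocyte markers had 2 of 10 higher and none lower (median -0.037), against the same shares of all genes.

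**Figure D4:**
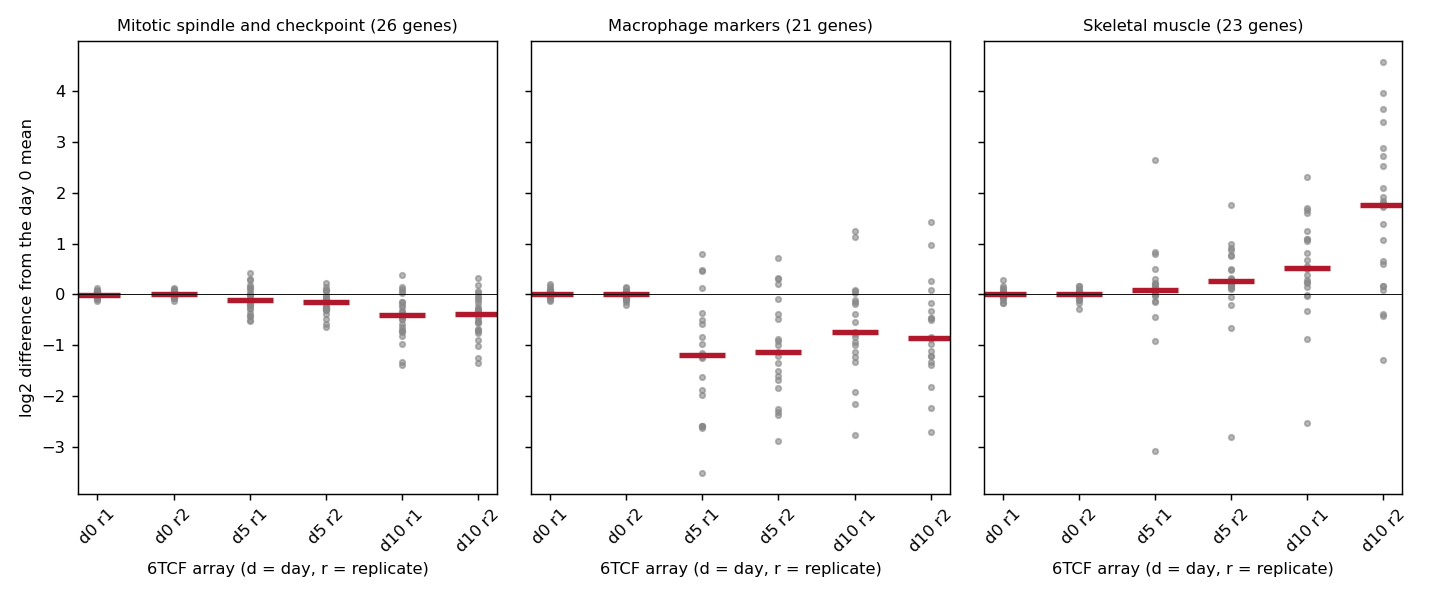
Log2 difference from the mean of the day 0 arrays for the genes of 3 lists on the 6 arrays of 6TCF, each point 1 gene and each red bar the list's median on that array. The macrophage median lies below 0 on each day 5 and day 10 array, and the skeletal muscle median lies higher on day 10 replicate 2 than on replicate 1.

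Mitotic genes were lower or not called. Of 26 mitotic genes, 14 were lower, none higher and 12 not called (median -0.41). Kif4, a chromosome motor gene, stood at 8.14 and 8.26 on the day 0 arrays and at 7.22 and 7.43 on the day 10 arrays, a log2 change of -0.87 ± 0.13 (adjusted p = 1.63e-04). Tpx2, a spindle assembly gene, went from 9.02 and 8.94 to 8.16 and 8.09, which is a log2 change of -0.86 ± 0.16 with an adjusted p of 0.00122. Uhrf1, which maintains DNA methylation after replication, was at 9.01 and 8.98 at day 0 and at 7.91 and 8.17 at day 10 (log2 change -0.96 ± 0.15, adjusted p = 2.87e-04). All were lower on both day 10 arrays. Without 6TCF day 0 replicate 2 the mitotic genes called lower numbered 7, and without 6TCF day 10 replicate 2 they numbered 8. Replication genes were lower in 8 of 22 cases and higher in 2 (median -0.28). Leaving out 1 array at a time left 3 to 4 of them lower, the smaller number without 6TCF day 0 replicate 2 or day 10 replicate 2 and the larger without day 0 replicate 1 or day 10 replicate 1. Replication genes called higher numbered 0 when 6TCF day 0 replicate 1 or day 10 replicate 1 was left out and 1 when day 0 replicate 2 was. Under median centring 1 was higher, and against all 4 day 0 arrays 0. With a pseudocount of 64, a filter at the median, averaged probe sets or only the 4 arrays in the fit, 1 mitotic gene was higher. Among inhibitors of the cycle and D cyclins, 8 of 17 were higher and 3 lower (median 0.31). Cdkn2a, the p16 and p19Arf gene, which accumulates in ageing cultures, stood at 10.10 and 10.03 on the day 0 arrays and at 12.001 and 12.01 on the day 10 arrays, a log2 change of 1.94 ± 0.13 (adjusted p = 3.52e-07). Cdkn2c, another inhibitor of the D cyclin kinases, went from 8.35 and 8.23 to 9.78 and 9.68, which is a log2 change of 1.44 ± 0.13 with an adjusted p of 4.45e-06. Gadd45b, a stress response gene, was at 9.29 and 9.22 at day 0 and at 7.82 and 7.60 at day 10 (log2 change -1.54 ± 0.15, adjusted p = 6.77e-06). Gadd45b was low at day 10 and the inhibitors were high, and without 6TCF day 10 replicate 1 the list had 1 lower gene.

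Metabolic genes changed by pathway. Genes of serine synthesis and amino acid supply, targets of the transcription factor ATF4, were lower in 14 of 20 cases and higher in 3 (median -0.70). Asns, the asparagine synthetase gene, stood at 10.97 and 10.96 on the day 0 arrays and at 9.35 and 9.17 on the day 10 arrays, a log2 change of -1.70 ± 0.15 (adjusted p = 2.64e-06). Mthfd2, a mitochondrial folate enzyme gene, went from 9.40 and 9.32 to 7.79 and 7.72, which is a log2 change of -1.61 ± 0.13 with an adjusted p of 1.30e-06. Slc7a5, an amino acid transporter gene, was at 9.26 and 9.34 at day 0 and at 7.65 and 7.78 at day 10 (log2 change -1.59 ± 0.16, adjusted p = 7.61e-06). Each was low on both day 10 arrays. Without 6TCF day 0 replicate 2 the list had 1 higher gene. Cholesterol synthesis genes were lower in 13 of 19 cases and higher in 2 (median -0.53), with 8 lower without 6TCF day 0 replicate 1. Srebf2, the transcription factor gene that drives the pathway, stood at 8.79 and 8.94 on the day 0 arrays and at 7.74 and 7.72 on the day 10 arrays, a log2 change of -1.14 ± 0.16 (adjusted p = 1.60e-04). Msmo1, a sterol methyl oxidase gene, went from 10.90 and 10.72 to 9.99 and 9.80, which is a log2 change of -0.91 ± 0.13 with an adjusted p of 1.61e-04. Both were lower on the day 10 arrays, and against all 4 day 0 arrays Srebf2 was not called (-0.62). Endoplasmic reticulum chaperone genes were not called in 13 of 18 cases, with 3 higher and 2 lower (median 0.014). The higher ones numbered 1 without 6TCF day 0 replicate 2, and the lower ones 1 without 6TCF day 0 replicate 1 or day 10 replicate 1.

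Glycolysis and hypoxia genes were lower in 11 of 21 cases and higher in 7 (median -0.54). Hk2, the inducible hexokinase gene, was at 9.07 and 9.23 at day 0 and at 7.57 and 7.70 at day 10 (log2 change -1.52 ± 0.20, adjusted p = 9.18e-05). Slc2a1, the basal glucose transporter gene, stood at 10.60 and 10.75 on the day 0 arrays and at 9.55 and 9.77 on the day 10 arrays, a log2 change of -1.02 ± 0.15 (adjusted p = 1.92e-04). Egln3, an oxygen-sensing hydroxylase gene, went from 7.39 and 7.44 to 9.70 and 9.76, which is a log2 change of 2.32 ± 0.15 with an adjusted p of 1.98e-07. Hexokinase and transporter were low at day 10 and Egln3 was high. Aldoc, the brain-type aldolase gene, was at 6.69 and 6.05 at day 0 and at 9.15 and 8.90 at day 10 (log2 change 2.65 ± 0.19, adjusted p = 5.91e-07). Aldoc was high on both day 10 arrays. The higher calls numbered 4 without 6TCF day 0 replicate 2, day 10 replicate 1 or day 10 replicate 2. Averaged over its probe sets Aldoc was at 1.75. Genes of the mitochondrial respiratory chain were higher in 13 of 26 cases and lower in 1 (median 0.36). Cox7a1, a cytochrome oxidase subunit gene of muscle and brown fat, stood at 5.63 and 5.44 on the day 0 arrays and at 7.61 and 7.32 on the day 10 arrays, a log2 change of 1.93 ± 0.13 (adjusted p = 3.23e-07). Ndufa4, a subunit gene of the respiratory chain, went from 11.92 and 11.93 to 13.04 and 13.04, which is a log2 change of 1.12 ± 0.15 with an adjusted p of 7.78e-05. Both were high at day 10. The lower gene, Uqcrc1 (-0.51 ± 0.13), was not called without 6TCF day 10 replicate 1 (-0.46). Antioxidant genes under NRF2 and metallothioneins had 6 of 22 higher and 4 lower (median 0.044), close to the 23.2% and 20.0% of all genes. Mt2, a metallothionein gene, was at 10.33 and 10.06 at day 0 and at 12.66 and 12.75 at day 10 (log2 change 2.52 ± 0.12, adjusted p = 2.25e-08). Txnrd1, the thioredoxin reductase gene, stood at 11.84 and 11.79 on the day 0 arrays and at 10.58 and 10.64 on the day 10 arrays, a log2 change of -1.21 ± 0.16 (adjusted p = 1.01e-04). Mt2 was high and Txnrd1 low on both day 10 arrays, and leaving out 6TCF day 0 replicate 2 gave 2 lower genes. Of 16 ribosomal protein genes, 2 were higher, none lower and 14 not called (median 0.11). The count was 4 with median centring and 1 without either day 0 array or without 6TCF day 10 replicate 1.

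The change by day 10 was then set against that of the SGCF arm, which has its own day 0 arrays, by testing the difference of the changes. Any difference between the arms at day 0 enters that value. The difference of the changes was called for 2740 of 10674 genes (25.7%). It was more positive under 6TCF for 1431 (13.4%) and more negative for 1309 (12.3%). Array brightness differed between the arms, so a processing batch and the arm cannot be told apart. Leaving out 1 array at a time, the count was 1672 without 6TCF day 0 replicate 1, 1447 without 6TCF day 0 replicate 2 and 1463 without 6TCF day 10 replicate 1. In SGCF itself 4144 genes were called (38.8%). Of the genes called and at least 2-fold higher, 349 were so in both arms, which is 43.2% of the 807 of 6TCF and 58.5% of the 597 of SGCF. Of those lower, 168 were shared, 33.9% of the 495 and 32.9% of the 510. The median SGCF change was 0.81 for the 807 genes and -0.68 for the 495. In SGCF, 17 of 18 contractile genes and 6 of 12 collagen crosslinking genes were called lower, against 18.3% of all genes. Called higher in SGCF were 9 of 12 acute-phase, 14 of 20 Wnt feedback and 8 of 15 retinoid genes, against 20.5% of all genes. The opposite call was made for 1 crosslinking gene and 3 Wnt feedback genes.

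Chemokine and interferon-stimulated genes with a called difference had the more positive change under 6TCF. The difference was called, and positive, for 11 of 21 chemokine genes and 10 of 20 interferon-stimulated genes, and negative for none of either. Other inflammatory lists were mixed. The difference was positive for 2 and negative for 6 of 17 NF-kappaB genes, whose median change was 0.12 in 6TCF and 0.68 in SGCF. It was positive for 2 and negative for 2 of 12 acute-phase genes, and positive for 2 and negative for 3 of 14 antigen presentation genes. Ccl11 changed by 3.13 ± 0.14 in 6TCF and by 0.35 ± 0.14 in SGCF, a difference of 2.77 ± 0.19 (adjusted p = 7.72e-06). Cxcl13 changed by 2.99 ± 0.14 in 6TCF and by 0.27 ± 0.14 in SGCF, a difference of 2.72 ± 0.20 (adjusted p = 9.81e-06). Gbp2 changed by 3.73 ± 0.25 in 6TCF and by 1.28 ± 0.25 in SGCF, a difference of 2.45 ± 0.36 (adjusted p = 6.52e-04). Ccl11 and Cxcl13 were not called in SGCF. Epithelial genes differed in the same direction for 9 of 19 and in the opposite direction for 1. Krt18 changed by 2.77 ± 0.18 in 6TCF and by 0.31 ± 0.18 in SGCF, a difference of 2.46 ± 0.25 (adjusted p = 7.36e-05). Krt8 changed by 2.31 ± 0.26 in 6TCF and by -0.26 ± 0.26 in SGCF, a difference of 2.56 ± 0.37 (adjusted p = 6.42e-04). Epcam changed by 1.89 ± 0.21 in 6TCF and by -0.18 ± 0.21 in SGCF, a difference of 2.07 ± 0.30 (adjusted p = 6.54e-04). None of these keratin or adhesion genes was called in SGCF.

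Many cell division genes and macrophage markers had a lower change under SGCF than under 6TCF. The difference was called and positive, 6TCF minus SGCF, for 23 of 26 mitotic genes, 17 of 22 replication genes and 20 of 21 macrophage markers. Their SGCF medians were -1.94, -1.23 and -2.65. Tpx2 changed by -0.86 ± 0.16 in 6TCF and by -2.34 ± 0.16 in SGCF, a difference of 1.49 ± 0.23 (adjusted p = 0.00107). Ctss changed by -2.74 ± 0.29 in 6TCF and by -4.29 ± 0.29 in SGCF, a difference of 1.55 ± 0.41 (adjusted p = 0.0174). Mpeg1 changed by -2.20 ± 0.17 in 6TCF and by -3.43 ± 0.17 in SGCF, a difference of 1.23 ± 0.24 (adjusted p = 0.00369). All 3 genes fell in both arms.

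Other genes had the more negative change under 6TCF. Tnc changed by -1.91 ± 0.22 in 6TCF and by 0.17 ± 0.22 in SGCF, a difference of -2.08 ± 0.31 (adjusted p = 8.58e-04). Myh9 changed by -1.96 ± 0.19 in 6TCF and by -0.63 ± 0.19 in SGCF, a difference of -1.32 ± 0.27 (adjusted p = 0.00487). Hk2 changed by -1.52 ± 0.20 in 6TCF and by 0.54 ± 0.20 in SGCF, a difference of -2.06 ± 0.29 (adjusted p = 5.11e-04). Tnc and Hk2 were not called in SGCF, and Myh9, the non-muscle myosin gene of the contractile list, fell in both arms. Fasn changed by -1.47 ± 0.18 in 6TCF and by -0.040 ± 0.18 in SGCF, a difference of -1.43 ± 0.25 (adjusted p = 0.00223). It too was not called in SGCF. The difference was called for 446 of the 807 genes and for 294 of the 495, against 25.7% of all genes tested. These genes were chosen by their 6TCF change, which is part of the tested difference, so the counts are descriptions. For others of them, such as the following, the difference was not called. Axin2 changed by 3.01 ± 0.13 in 6TCF and by 3.09 ± 0.13 in SGCF, a difference of -0.073 ± 0.19 (adjusted p = 0.806). Fbln2 changed by -3.10 ± 0.22 in 6TCF and by -3.12 ± 0.22 in SGCF, a difference of 0.013 ± 0.31 (adjusted p = 0.981). Inhbb changed by 3.59 ± 0.17 in 6TCF and by 3.13 ± 0.17 in SGCF, a difference of 0.46 ± 0.24 (adjusted p = 0.176). The 95% intervals of these differences ran from -0.48 to 0.33, from -0.66 to 0.69 and from -0.057 to 0.98.

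**Figure D5:**
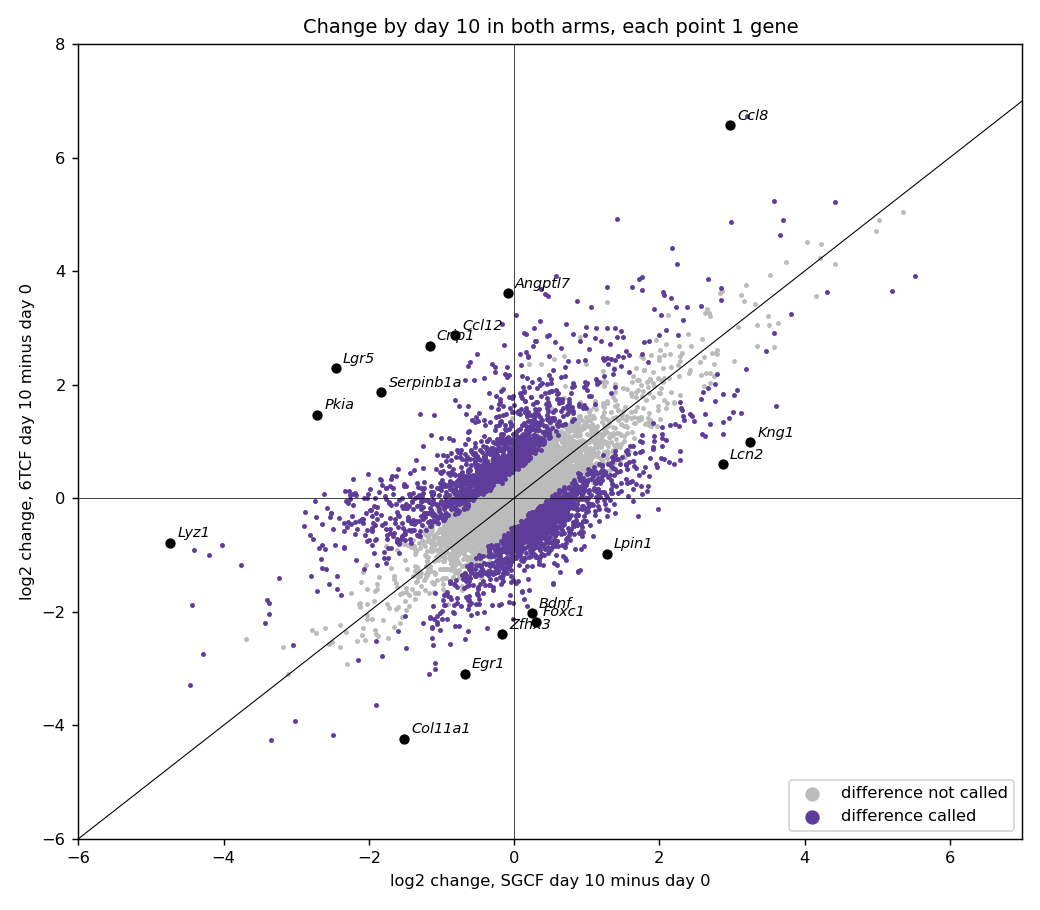
Log2 change by day 10 in 6TCF (vertical axis) against that in SGCF (horizontal axis) for 10674 genes, each point 1 gene, purple where limma called the difference between the arms, with the line of equal change. The black points are the 8 largest called differences in each direction among genes also called in 6TCF, led by Lgr5 at 2.29 in 6TCF and -2.46 in SGCF above the line and by Col11a1 at -4.24 and -1.52 below it.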

How the data were processed

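RNA of 12 MEF samples was hybridised to Affymetrix Mouse Genome 430A 2.0 arrays, and the deposited series table holds 1 linear intensity per probe set and array, made by the authors. RMA, MAS5 and limma appear in the submitters' processing notes without a role or order, so background correction and scaling of the intensity are not known here. From there, log2(intensity + 16) was quantile-normalised over the 12 arrays, keeping for each gene the probe set with the highest mean. Of 22690 probe sets, 20380 had 1 gene symbol, 691 several and 1555 none. Symbols came from GEO's platform annotation, 20351 of them matched to RefSeq. Genes were tested if at least 1 group mean exceeded the 25th percentile (log2 5.25), which left 10674 of 12393.

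limma (version 3.58.1, R 4.3.3) was fitted to all 12 arrays with 6 group means, eBayes moderation (6 residual and 5.75 prior degrees of freedom) and Benjamini-Hochberg adjustment over all genes tested. The fit was tested on simulated data. Replicates carry numbers, with nothing in the labels saying that they are separate cultures, so p-values measure the spread between these arrays, which may be technical.

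The arrays compared and the 48 gene lists were chosen with earlier results of these data known. Of 959 list entries 870 were on the array and 802 tested. Named genes are the 12 largest rises and falls at least 2-fold and without overlap, list members given by their values, the 8 largest differences between the arms in each direction, and 4 genes in each direction that turned back after day 5. Alternatives were other pseudocounts (1 and 64), filters and normalisations, other probe set rules, a trend in eBayes, fewer arrays in the fit, pooled day 0 arrays, a replicate block, and each array left out in turn. Promoters are RefSeq's, 250 bases before the start.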

Additional observations from a re-analysis of the deposited data

Results flagged for a closer look

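The change by day 10 differed between the arms for 2740 genes, by a test of the difference itself. The 8 genes with the most positive difference, 6TCF minus SGCF, included the R-spondin receptor gene Lgr5 (4.75 ± 0.31), the protein kinase A inhibitor gene Pkia (4.18 ± 0.27) and the LIM domain gene Crip1 (3.85 ± 0.19). Lyz1 (3.95 ± 0.33), a lysozyme gene of myeloid and intestinal cells, fell by day 10 in 6TCF (-0.78 ± 0.23) and further in SGCF (-4.74). The 6TCF fall of Lyz1 was not called without 6TCF day 0 replicate 1 (-0.73), day 0 replicate 2 (-0.84) or day 10 replicate 2 (-0.62). Lyz1 is a near-identical copy of Lyz2, so which of them its probe set reads is uncertain. The other genes of this kind were Angptl7 (3.71 ± 0.17), the protease inhibitor gene Serpinb1a (3.70 ± 0.25) and the chemokine genes Ccl12 (3.68 ± 0.29) and Ccl8 (3.60 ± 0.32). Against all 4 day 0 arrays the 6TCF rise of Ccl12 (2.87 ± 0.21) was 1.501 and not called, and that of Lgr5 was 1.10 and not called. The arms already differed at day 0 for some of these genes. The day 0 mean was 5.96 in 6TCF and 8.34 in SGCF for Lgr5, and 5.41 and 8.15 for Ccl12. For Pkia it was 8.25 in both arms. The day 10 means of Ccl12 were 8.28 in 6TCF and 7.33 in SGCF.

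The 8 most negative differences were those of the collagen gene Col11a1 (-2.72 ± 0.33), the forkhead gene Foxc1 (-2.47 ± 0.21), the immediate early gene Egr1 (-2.42 ± 0.32), the lipocalin gene Lcn2 (-2.27 ± 0.16), the neurotrophin gene Bdnf (-2.27 ± 0.29), the kininogen gene Kng1 (-2.27 ± 0.24), the phosphatidate phosphatase gene Lpin1 (-2.25 ± 0.23) and the homeobox gene Zfhx3 (-2.23 ± 0.35). Lcn2 rose in 6TCF by 0.60 ± 0.11, between means that were both below the filter on low values, and in SGCF by 2.87. Lpin1 changed by -0.98 ± 0.16 in 6TCF and was not called against all 4 day 0 arrays (-0.37). Its day 0 mean was 8.47 in 6TCF and 7.25 in SGCF, and that of Bdnf was 9.92 and 8.44. Egr1 started at similar levels, 11.09 and 11.04. Brightness of the arrays differs between the arms, so the arm and a processing batch cannot be told apart for any of the 16.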

How the results depend on the processing

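Leaving out 1 array of 6TCF at a time gave 3216 to 3586 called genes, 1794 to 1963 higher and 1422 to 1623 lower, and 779 to 846 genes at least 2-fold higher and 467 to 541 at least 2-fold lower. The group left with 1 array is then assumed to vary like the others. The count of differences between the arms was 1447 to 3830 when 1 array of either arm was left out. No other alternative moved a count over all genes by more than 1.5 times, and median centring put 50% of the called genes higher, against 53.7%. Of 216 named genes, 212 were called and 194 kept their call and direction under each alternative that gave a value. H2-K1 reversed to 0.15 with its probe sets averaged. Oas1a was not called with a pseudocount of 1 (-0.74) or with no filter (-0.62). With averaged probe sets the changes of Skil (-1.43), Map1b (-1.44), Gadd45b (-0.96), Tapbp (0.54), H2-D1 (-0.38), Kng1 (0.57) and Cald1 (-1.12) moved by over 1.5 times and stayed called. Against all 4 day 0 arrays so did Col6a2 (1.14), Msln (-1.36), Hk2 (-1.005), Bdnf (-1.29), Ptprc (-1.36), Lyz1 (-1.23) and Lyz2 (-1.49). The cause was not tested. Apart from fits without 1 array, 28 of 96 list counts moved by over 1.5 times under at least 1 alternative. Same-numbered replicates deviated from their group means with a correlation of -0.0314 between days 0 and 10 of 6TCF and 0.11 in SGCF. The labels do not say what a number shares, so the numbers were not taken to pair the samples, and the fit with a replicate block called 4517 genes and 2533 differences between the arms. Dim genes have understated changes on the log2(intensity + 16) scale, and 2 arrays a group limit what can be called.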

Other observations

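Hox genes, which mark position along the body, were lower at day 10 of 6TCF in 12 of 19 cases and higher in none (median -0.48). Hoxa7, a gene of the trunk, went from 7.92 and 7.96 to 6.53 and 6.61, which is a log2 change of -1.37 ± 0.15 with an adjusted p of 2.00e-05. Hoxc4, a gene of the neck and anterior trunk, was at 7.73 and 7.69 at day 0 and at 6.76 and 6.89 at day 10 (log2 change -0.88 ± 0.14, adjusted p = 3.99e-04). Both were low on the day 10 arrays, and Hoxc6 changed by -0.82 ± 0.14. The Hox genes called lower numbered 7 without 6TCF day 0 replicate 1 and 7 without 6TCF day 10 replicate 1. With the 6 arrays of 6TCF normalised alone, or only the 4 arrays in the fit, 1 was higher.

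Imprinted growth genes were higher in 6 of 12 cases and lower in 4 (median 0.34). Mest, a paternally expressed gene of embryonic mesoderm, stood at 9.39 and 9.07 on the day 0 arrays and at 10.84 and 11.31 on the day 10 arrays, a log2 change of 1.84 ± 0.20 (adjusted p = 1.56e-05). Dlk1, a membrane protein gene of progenitor cells, went from 8.90 and 8.72 to 10.19 and 10.16, which is a log2 change of 1.36 ± 0.15 with an adjusted p of 2.17e-05. Grb10, a growth factor receptor adaptor gene, was at 12.34 and 12.37 at day 0 and at 11.50 and 11.69 at day 10 (log2 change -0.76 ± 0.15, adjusted p = 0.00171). Mest and Dlk1 were high and Grb10 low on both day 10 arrays. Against all 4 day 0 arrays 2 were lower. Pluripotency genes had 1 of 9 higher and 2 lower (median -0.12), against 23.2% and 20.0% of all genes. Klf4, a reprogramming factor gene that fibroblasts also express, stood at 10.30 and 10.56 on the day 0 arrays and at 8.96 and 8.67 on the day 10 arrays, a log2 change of -1.61 ± 0.21 (adjusted p = 7.55e-05). Its day 10 arrays were low, and the list had 1 lower gene without 6TCF day 0 replicate 1, day 0 replicate 2 or day 10 replicate 2. The 4 tested genes of the list of Y-linked genes and Xist were not called (median 0.29).

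Some genes turned back between day 5 and day 10. The neural and embryonic stem cell factor gene Sox2 was at 5.27 and 5.03 at day 0, 8.15 and 7.86 at day 5 and 6.26 and 6.68 at day 10, a change of -1.53 ± 0.22 from day 5. The neurofilament gene Nefl stood at 5.27 and 5.42, 9.55 and 8.91 and 6.94 and 8.33 on these days, and the change from day 5 was -1.60 ± 0.39. In fits added after seeing the data, each leaving out 1 array of day 5 or day 10, that change of Nefl was -0.90 and not called without 6TCF day 10 replicate 1 and -1.28 and not called without day 5 replicate 1. Both were highest at day 5, as were the mitochondrial calcium sensor gene Efhd1 (-1.68 ± 0.14 from day 5 to day 10) and the calmodulin kinase gene Camk1d (-1.45 ± 0.22). Lyz2, a lysozyme gene of macrophages, was at 10.60 and 10.47 at day 0, 7.89 and 8.27 at day 5 and 9.69 and 9.55 at day 10, and rose by 1.54 ± 0.26 from day 5, which was 1.36 and not called without 6TCF day 5 replicate 1. The other 6 genes that turned back kept that call in each of these fits. Moxd1 (1.64 ± 0.23), Lyz1 (1.57 ± 0.23) and the LIM homeobox gene Lhx9 (1.35 ± 0.18) also fell by day 5 and rose after it. Against day 0, Lyz2 was still lower at day 10 (-0.91 ± 0.26), a call lost without 6TCF day 0 replicate 1 (-0.85) or day 10 replicate 2 (-0.84), whereas Moxd1 (0.59) and Lhx9 (0.42) were not called. Camk1d was higher at day 10 than at day 0 (0.76 ± 0.22), a call lost without 6TCF day 0 replicate 2 (0.70), day 10 replicate 1 (0.79) or day 10 replicate 2 (0.74).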
